A study of Mus musculus with 4 samples.

Results

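The genes of the proteasome, 46 protein-coding genes whose symbols begin with Psm, a letter from a to g and a digit, were followed across 4 cell populations of the mouse aorta-gonad-mesonephros (AGM) region at embryonic day 11. The rule used gene symbols and no measured value, and it took 46 of 51205 genes in the table, of which 20776 are protein-coding. Of the 46, 1 (Psmc3ip) matches by its symbol only, since it encodes a cofactor of meiotic recombination and no proteasome subunit. Some proteasome genes are not analysed here, so the sets below are not the complete particles.

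The proteasome is the protease that degrades proteins tagged with ubiquitin. Its core particle is a barrel of stacked rings, in which alpha subunits form the gate and beta subunits form the proteolytic chamber. A regulatory particle caps the barrel: its base holds ATPases that unfold the substrate and its lid removes ubiquitin. In blood cells and in cells exposed to interferon, inducible catalytic subunits can take the place of constitutive ones and give the immunoproteasome, and the activator PA28 can bind in place of the regulatory particle. Dedicated chaperones assemble the core and the base.

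Cells were sorted by flow cytometry from AGMs carrying a GFP reporter in the Runx1 locus, and bulk RNA was sequenced, with 1 library for each population. All 4 populations were NG2- and PDGFRβ- (pericyte markers) and CD31+ (an endothelial marker that early blood cells share). The gate ckit-CD45-Runx1(GFP)- gave endothelial cells (ECs), and the gate ckit-CD45-Runx1(GFP)+ gave hemogenic endothelium (HECs), from which blood cells emerge. In the ckit+ gate, set without CD45, the intra-aortic hematopoietic cluster cells (IAHCs) were taken as a Runx1(GFP)+ and a Runx1(GFP)- fraction. The genotype label reads WT, whereas the supplement of the study describes pooled embryos with the reporter on 1 or both copies, so the reporter dose of each library is uncertain. Comparing HECs with ECs, and Runx1+ with Runx1- IAHCs, sets Runx1-expressing cells beside cells without Runx1 at each step, and the further comparisons set IAHCs beside the endothelial population of the same Runx1 status.

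Levels are given in TPM, reads scaled by gene length and by library total, so that levels of different genes can be set side by side. From 12420598 (EC) to 15917924 (Runx1- IAHC) whole reads could be recovered from the TPM values. Intervals below are exact 95% intervals on these reads (Poisson for levels, Clopper-Pearson for ratios and shares), and they cover counting error only: no replicate check and no test between populations was possible with 1 library each. The Runx1 transcript followed the gates, at 0.311 TPM in ECs and 13 in HECs, 10.1 in the Runx1+ IAHCs and 0.128 in the Runx1- IAHCs. Kit was at 9.69 and 1.08 TPM in ECs and HECs and at 34.5 and 62.1 TPM in Runx1+ and Runx1- IAHCs.

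Markers of other cell types were present and differed between the libraries. Germ cell genes (13 measured) summed to 7030 TPM in Runx1- IAHCs and 683 in ECs but to 17.6 in HECs and 8.5 in Runx1+ IAHCs, and 11 of the 13 were at 10 TPM or more in Runx1- IAHCs. Platelet genes (10 measured) summed to 53700 TPM in HECs and to 64.5 to 421 elsewhere, and HECs lay 2-fold or more under ECs for all 10 genes of the endothelial list. Pan-hematopoietic genes (9 measured) summed to 2790 TPM in HECs and 2150 in Runx1+ IAHCs, against 61.9 in ECs and 49.4 in Runx1- IAHCs, where Ptprc, Cd52 and Tyrobp had no read. Fcer1g supplied 2033 TPM of the sum in HECs and 562 in Runx1+ IAHCs, and 5 of the 9 genes (Ptprc, Laptm5, Cd52, Tyrobp and Spi1) stood 2-fold or more above HECs in Runx1+ IAHCs. Granulocyte and monocyte progenitor genes (6 measured) summed to 804 TPM in HECs and 989 in Runx1+ IAHCs, against 1.65 in ECs and 3.92 in Runx1- IAHCs. Erythroid genes summed to 42100 TPM in ECs and 25600 in HECs, but to 592 and 595 in Runx1+ and Runx1- IAHCs. The part of these cells in the values below was not tested. By the study, sorted cells were most numerous for ECs and fewest for Runx1- IAHCs, so the number of cells behind a library also limits its values, which no interval below covers. In bulk libraries, fewer cells of a type and less RNA per cell cannot be told apart.

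Proteasome genes were among the more abundant transcripts, and most were lowest in ECs. Together the 46 genes took 0.651% of all TPM in ECs and 1.02% in HECs, 1.08% in the Runx1+ IAHCs and 1.46% in the Runx1- IAHCs. ECs held the lowest value for 40 of the 46 genes, while 35.5% of all genes at 10 TPM or more in a library were lowest there. Runx1- IAHCs held the highest value for 29 genes against 47.6% of all genes, Runx1+ IAHCs for 11 against 19.2%, HECs for 5 against 16.1%, and ECs for 1 against 17.1%. Of the 6 genes not lowest in ECs, 5 were lowest in Runx1- IAHCs (23.1% of all genes), 1 in Runx1+ IAHCs (15.6%) and 0 in HECs (25.7%). The order rests in part on the scaling of the libraries: scaled by the median ratio of genes above 10 TPM, 32 genes were lowest in ECs (24.5% of all genes) and 24 highest in Runx1- IAHCs (37.7%), while 13 were lowest in Runx1- IAHCs (30.7%).

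**Figure D1:**
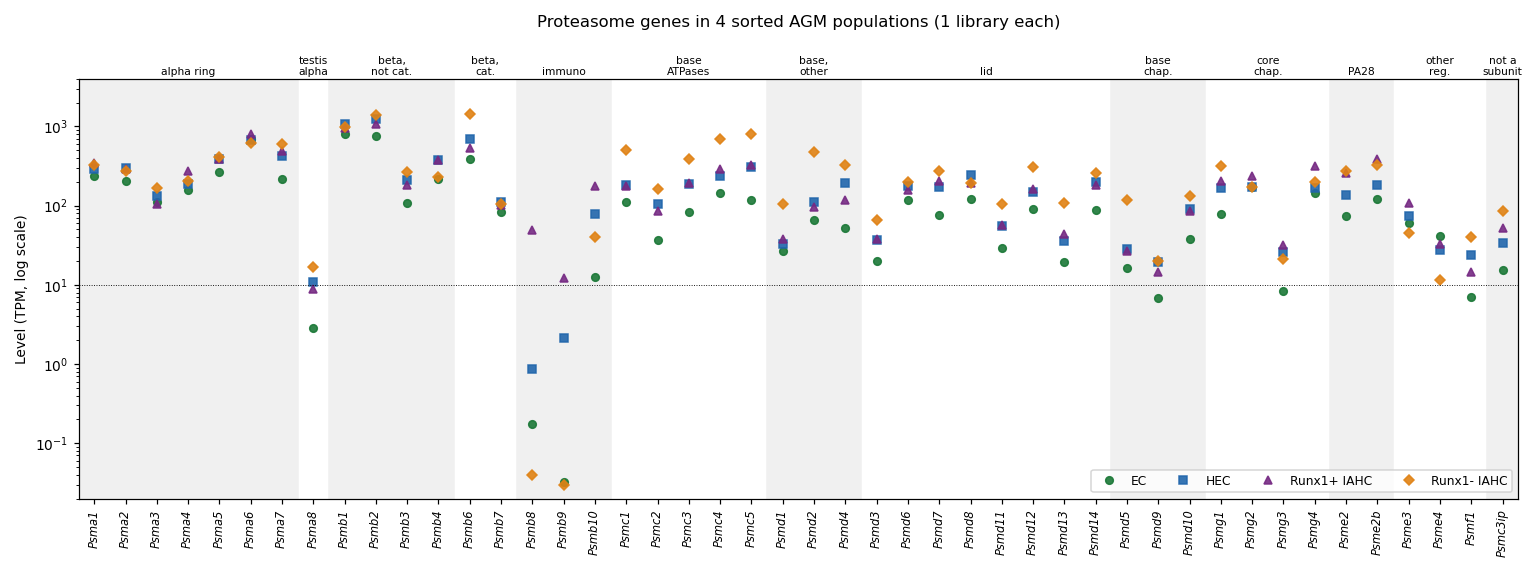
Level of each of the 46 genes (TPM, log axis) in the 4 libraries, grouped by role. Each symbol is 1 library, with the read added to every gene included, and the dotted line marks 10 TPM. EC circles lie lowest for 40 genes. Symbols of the alpha and beta rings lie close together, those of the base ATPases spread with Runx1- IAHCs on top, and Psmb8 and Psmb9 reach 10 TPM only in Runx1+ IAHCs.

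The most abundant genes belonged to the core. Psmb2, a structural beta subunit, was at 758 TPM in ECs and 1256 in HECs, 1071 in the Runx1+ IAHCs and 1400 in the Runx1- IAHCs. Psmb1, the other structural beta subunit at this level, was at 811, 1067, 948 and 971 TPM in the same order, and the alpha subunit Psma6 was at 701, 683, 809 and 623 TPM. These genes varied little between populations, with a highest value 1.85 times the lowest for Psmb2, 1.32 times for Psmb1 and 1.3 times for Psma6. Psmb6, whose mean of 758 TPM lay above that of Psma6 (704), varied more, with a highest value 3.69 times the lowest. By mean level Psmb2 and Psmb1 stood above 99.7% of protein-coding genes.

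Over the 13 constitutive core genes measured (7 alpha, 6 beta), the summed level was 4263 TPM in ECs and 6122 in HECs, 5904 in the Runx1+ IAHCs and 7007 in the Runx1- IAHCs. The alpha ring alone summed to 1896 TPM in ECs and 2409 in HECs, 2692 in the Runx1+ IAHCs and 2608 in the Runx1- IAHCs. Within the ring Psma3 spanned 105 to 168 TPM, Psma2 205 to 300 and Psma1 240 to 342. Psma7 spanned the most, at 218 TPM in ECs and 426 in HECs, 484 in the Runx1+ IAHCs and 594 in the Runx1- IAHCs, lowest in ECs and highest in Runx1- IAHCs. The order of the core sums depended on the scaling, since with median ratios HECs (6456) and not Runx1- IAHCs (5951) held the highest core sum.

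A beta subunit stood apart from the rest of the core. Psmb6, the constitutive subunit with caspase-like activity, was at 387 TPM in ECs and 685 in HECs, 532 in the Runx1+ IAHCs and 1428 in the Runx1- IAHCs, so that the last population was 3.69-fold above ECs (3.59 to 3.79) and Runx1+ IAHCs were 2.69-fold below it (2.63 to 2.75). Its constitutive partner Psmb7, with trypsin-like activity, was at 84 TPM in ECs and 112 in HECs, 102 in the Runx1+ IAHCs and 105 in the Runx1- IAHCs, where the populations other than ECs lay within 1.1-fold of each other. A processed pseudogene annotated as Psmb6-ps2 was read at 36.7, 80.7, 56.7 and 173 TPM in the same order as Psmb6, and reads of near-identical copies may have been placed in either. Testis alpha subunit Psma8, which replaces a core alpha subunit in male germ cells, was read at 2.87 TPM in ECs and 10.8 in HECs, 8.93 in the Runx1+ IAHCs and 16.6 in the Runx1- IAHCs. The germ cell sum was highest in Runx1- IAHCs (7030 TPM) and next highest in ECs (683 TPM), where Psma8 was lowest, with 40 reads. The part of germ cells in the Psma8 values was not tested.

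The regulatory particle differed between populations more than the core did. Summed over its 16 genes, it was at 1195 TPM in ECs and 2431 in HECs, 2363 in the Runx1+ IAHCs and 4970 in the Runx1- IAHCs. All 16 genes were lowest in ECs and 15 of 16 were highest in Runx1- IAHCs, while 11 and 6 of the 13 core genes were. Of all genes at 10 TPM or more in a library, 35.5% and 47.6% were. The core count highest in Runx1- IAHCs thus lay near the share over all genes. With median ratios the regulatory counts were 16 and 14 of 16 and the core counts 5 and 4 of 13. The shares of all genes were then 24.5% and 37.7%. In that scaling 7 of the 13 core genes were lowest in Runx1- IAHCs (1 as deposited), against 30.7% of all genes (23.1% as deposited). The ratio of the regulatory to the core sum, which no scaling of a library can move, was 0.28 in ECs and 0.397 in HECs, 0.4 in the Runx1+ IAHCs and 0.709 in the Runx1- IAHCs. HECs and Runx1+ IAHCs were alike in this ratio, ECs were below them and Runx1- IAHCs above.

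**Figure D2:**
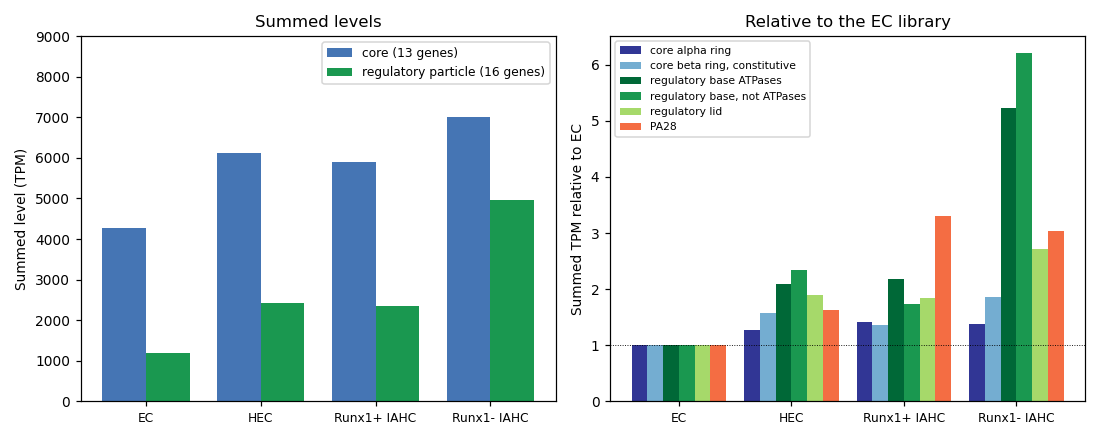
Left, summed level (TPM) of 13 core and 16 regulatory genes in each library. Right, sums of 6 gene groups relative to their sum in ECs. Bars are single libraries, without an error bar. The core sums run from 4263 to 7007 TPM and the regulatory sums from 1195 to 4970, and in Runx1- IAHCs the base groups stand at 5.23 and 6.2 times their EC sum and the alpha ring at 1.38 times.

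Within the regulatory particle the ATPases of the base, the motor that threads substrates into the core, moved together. Psmc5 was at 116 TPM in ECs and 304 in HECs, 328 in the Runx1+ IAHCs and 805 in the Runx1- IAHCs. Psmc4 was at 143, 240, 288 and 697 TPM in the same order, and Psmc1 at 110, 184, 179 and 501. Each of these genes was lowest in ECs, intermediate and similar in HECs and Runx1+ IAHCs, and highest in Runx1- IAHCs. Psmc3 was at 82.2, 188, 192 and 389 TPM and Psmc2 at 36.8, 106, 85.7 and 163 TPM, which is the same order of ECs and Runx1- IAHCs. Over the 5 ATPases, Runx1- IAHCs were 4.44-fold (Psmc2) to 6.93-fold (Psmc5) above ECs.

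The other base subunits measured followed the ATPases. Psmd2, a scaffold that docks ubiquitin-binding proteins, was at 66.3 TPM in ECs and 112 in HECs, 95.6 in the Runx1+ IAHCs and 470 in the Runx1- IAHCs. Psmd1, the companion scaffold, was at 26.8, 32.5, 37.4 and 105 TPM. Psmd4, a ubiquitin receptor, was at 51.7, 195, 117 and 322 TPM. In all 3, ECs were lowest and Runx1- IAHCs highest, and for Psmd4 HECs stood 1.67-fold above Runx1+ IAHCs (1.6 to 1.74). Of the Psmd2 sequence, 17.4% of 51-base windows (the length of a read) also occur in another gene, so that part of its count is uncertain.

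The lid was less uniform. Psmd14, the subunit that cuts ubiquitin from substrates, was at 86.9 TPM in ECs and 196 in HECs, 180 in the Runx1+ IAHCs and 258 in the Runx1- IAHCs. Psmd13 was at 19.2, 36, 44.3 and 108 TPM, and Psmd12 at 89.6, 147, 160 and 310 TPM. Psmd8, alone among the 16 regulatory genes, was highest in HECs, at 247 TPM, against 122 in ECs, 194 in Runx1+ IAHCs and 193 in Runx1- IAHCs. Psmd6 differed least, from 117 TPM in ECs to 202 in Runx1- IAHCs. Summed, the 8 lid genes were 2.71 times as high in Runx1- IAHCs as in ECs, and the 5 ATPases 5.23 times.

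Chaperones of assembly did not share a pattern. The base chaperone Psmd5 was at 16.6 TPM in ECs and 28.7 in HECs, 26.7 in the Runx1+ IAHCs and 118 in the Runx1- IAHCs, and Psmd10 was at 37.9, 91.8, 85.8 and 131 TPM. Psmd9, among the lowest members, was at 6.86, 19.3, 14.5 and 20 TPM. Of the core chaperones, Psmg1 was at 79.3, 169, 206 and 319 TPM, in the order of the base ATPases, whereas Psmg2, its partner, was at 171, 172, 236 and 173 TPM. Psmg3 (8.41, 26.4, 32.2 and 21.1 TPM) and Psmg4 (146, 165, 312 and 199 TPM) were highest in Runx1+ IAHCs. Sums of the 3 base chaperones were 4.39 times as high in Runx1- IAHCs as in ECs, and those of the 4 core chaperones 1.76 times.

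The inducible catalytic subunits had another pattern, with the highest values in Runx1+ IAHCs. Psmb8, the inducible chymotrypsin-like subunit, had 3 reads in ECs and 24 in HECs, 1356 in the Runx1+ IAHCs and 0 in the Runx1- IAHCs, or 0.13, 0.84, 48.7 and 0 TPM once the read added to every gene is taken off. Psmb9, the inducible counterpart of Psmb6, had 0, 80, 448 and 0 reads, or 0, 2.09, 12 and 0 TPM. Psmb10, the inducible counterpart of Psmb7, was at 12.7 TPM in ECs and 79 in HECs, 179 in the Runx1+ IAHCs and 40 in the Runx1- IAHCs. Runx1+ IAHCs were highest and HECs next in all 3 genes, while the Runx1- populations held no more than 3 reads of Psmb8 and none of Psmb9. For a count of 0 a floor of 3 reads was used, which is 0.118 TPM of Psmb8 in Runx1- IAHCs, and 0.0973 and 0.0884 TPM of Psmb9 in ECs and Runx1- IAHCs. The upper ends of the 95% intervals were slightly higher, at 0.145, 0.12 and 0.109 TPM.

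Against Runx1- IAHCs, Runx1+ IAHCs held at least 412-fold more Psmb8 and at least 136-fold more Psmb9, taking 3 reads as the floor of the library without reads, which came from the fewest sorted cells, and 4.49-fold more Psmb10 (4.12 to 4.89). Against HECs they held 58-fold more Psmb8 (38.8 to 90.8), 5.74-fold more Psmb9 (4.52 to 7.38) and 2.27-fold more Psmb10 (2.13 to 2.42). HECs in turn held 6.24-fold more Psmb10 than ECs (5.34 to 7.32), at least 21.5-fold more Psmb9, and 6.46-fold more Psmb8 on the 3 reads of ECs (1.96 to 33.5). Psmb10 was also 3.15-fold higher in Runx1- IAHCs than in ECs (2.67 to 3.74). Some lists of blood cell markers moved with these genes and others did not. Of the pan-hematopoietic list, 8 of 9 genes stood 2-fold or more above Runx1- IAHCs in Runx1+ IAHCs, and against HECs 5 were higher and 1, Fcer1g, lower, with a median difference of 1.06. Of the granulocyte and monocyte progenitor list, Mpo and Prtn3 were higher in Runx1+ IAHCs than in HECs and Prg2 lower. All 10 platelet genes were 2-fold or more lower in Runx1+ IAHCs than in HECs. Of 8 erythroid genes compared there, 7 were lower and 1, Klf1, higher. The part of these cells in the levels of the inducible genes was not tested.

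Expressed as a share of the catalytic subunits measured (Psmb6, Psmb7, Psmb8, Psmb9 and Psmb10), the inducible ones took 2.67% of TPM in ECs and 9.33% in HECs, 27.5% in the Runx1+ IAHCs and 2.54% in the Runx1- IAHCs. The constitutive counterpart of Psmb8 is not among these genes, so each share is higher than it would be with that gene counted. By reads without scaling by length the shares were 2.12% (1.83 to 2.45), 7.99% (7.6 to 8.38), 26.4% (25.8 to 27.1) and 2.19% (2.03 to 2.37), with the same order of Runx1+ IAHCs, HECs and the Runx1- populations. Psmb10 had the highest level of the inducible genes in each library. Of Psmb10 and Psmb7 together, Psmb10 made up 13.2% in ECs and 41.3% in HECs, 63.7% in the Runx1+ IAHCs and 27.6% in the Runx1- IAHCs, whereas Psmb9 made up at most 2.22% of Psmb9 and Psmb6. The pairs differed: in Runx1+ IAHCs the transcripts of Psmb10 exceeded those of Psmb7, while those of Psmb6 exceeded those of Psmb9.

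**Figure D3:**
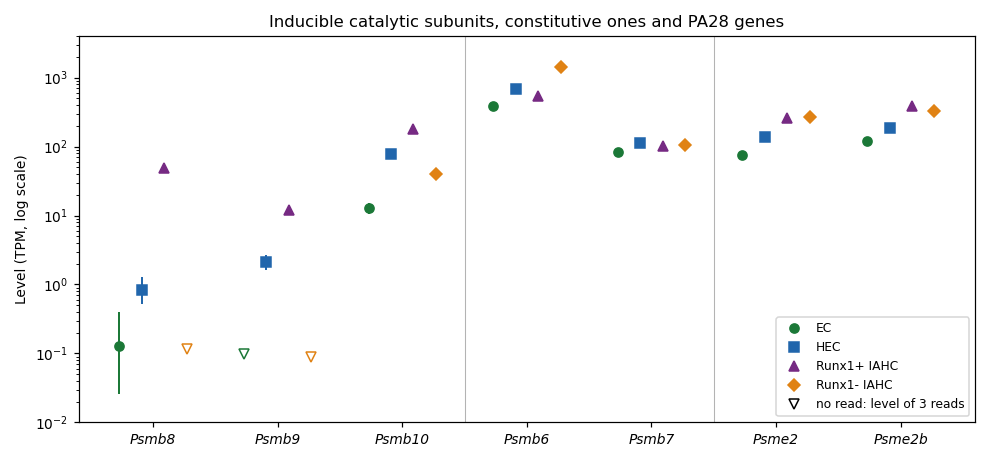
Levels (TPM, log axis, without the added read) of the inducible catalytic genes Psmb8, Psmb9 and Psmb10, of the constitutive Psmb6 and Psmb7, and of the PA28 genes Psme2 and Psme2b in the 4 libraries. Lines are exact 95% Poisson intervals, often smaller than the symbol, and open triangles mark the floor of 3 reads for a count of 0. The inducible genes are highest in Runx1+ IAHCs, where Psmb8 reaches 48.7 TPM, and Psmb6 is highest in Runx1- IAHCs.

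The activators did not share 1 pattern. Psme2, which encodes the beta subunit of PA28, was at 74.7 TPM in ECs and 138 in HECs, 258 in the Runx1+ IAHCs and 271 in the Runx1- IAHCs, and the similar gene Psme2b was at 122, 183, 393 and 325 TPM. Both were higher in the IAHC populations than in ECs and HECs. By contrast, Psmb8 and Psmb9 had no read in Runx1- IAHCs, and Psmb10 was lower there (40 TPM) than in HECs (79 TPM), though above ECs. The 2 genes cannot be fully separated, since 68.9% of the 51-base windows of Psme2b and 28% of those of Psme2 occur in another gene. Psme3, the nuclear PA28 subunit, was at 60.1, 74.1, 108 and 44.8 TPM, highest in Runx1+ IAHCs. Psme4, a nuclear activator known from testis and DNA repair, was the only gene of the 46 that was highest in ECs, at 41.6 TPM against 27.2 in HECs, 33.2 in the Runx1+ IAHCs and 11.5 in the Runx1- IAHCs. Psmf1, an inhibitor of the core in vitro, ran the opposite way, at 6.98, 23.9, 14.3 and 40.1 TPM. Psmc3ip, which is no subunit, was at 15.3, 34.1, 52.2 and 85.4 TPM.

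Promoter sequences are shown for 4 genes at the ends of these patterns: Psmb8 and Psmb9, highest in Runx1+ IAHCs, and Psmb6 and Psmd2, highest in Runx1- IAHCs. Each window runs from 250 bases before to 50 after the start of a RefSeq gene, on build GRCm38.p6, 5′ to 3′ on the strand of the gene. The windows are chr17:34197945-34198244 (plus strand, Psmb8), chr17:34187281-34187580 (minus strand, Psmb9), chr11:70525107-70525406 (plus strand, Psmb6) and chr16:20651402-20651701 (plus strand, Psmd2). Psmb8 and Psmb9 are neighbours on chromosome 17, in the major histocompatibility complex. Capitals mark a match to 1 of 4 motifs searched on both strands: TGACNNNGC (an antioxidant response element core, which the factor encoded by Nfe2l1 reads), CCAAT (the NF-Y box), TTCNNNGAA (a STAT site) and a pair of GAAA boxes with any 2 bases between them (an interferon-stimulated response element core). No overlapping matches occur in these 4 windows.
Psmb8: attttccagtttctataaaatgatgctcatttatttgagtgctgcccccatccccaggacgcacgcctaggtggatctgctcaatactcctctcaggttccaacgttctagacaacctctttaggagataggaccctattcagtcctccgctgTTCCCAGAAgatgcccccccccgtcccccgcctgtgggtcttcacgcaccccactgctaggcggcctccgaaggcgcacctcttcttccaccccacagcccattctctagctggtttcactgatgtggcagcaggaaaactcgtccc
Psmb9: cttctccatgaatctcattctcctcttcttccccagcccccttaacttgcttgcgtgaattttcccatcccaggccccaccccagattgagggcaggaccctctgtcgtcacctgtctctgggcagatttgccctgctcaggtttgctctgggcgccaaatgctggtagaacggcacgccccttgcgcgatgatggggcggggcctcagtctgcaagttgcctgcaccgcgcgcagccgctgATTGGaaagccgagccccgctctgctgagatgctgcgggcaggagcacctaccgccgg
Psmb6: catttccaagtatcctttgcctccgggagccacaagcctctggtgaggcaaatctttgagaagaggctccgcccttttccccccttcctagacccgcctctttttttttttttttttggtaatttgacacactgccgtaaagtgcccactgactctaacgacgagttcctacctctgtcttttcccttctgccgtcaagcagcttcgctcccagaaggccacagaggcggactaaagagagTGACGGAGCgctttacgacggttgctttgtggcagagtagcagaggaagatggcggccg
Psmd2: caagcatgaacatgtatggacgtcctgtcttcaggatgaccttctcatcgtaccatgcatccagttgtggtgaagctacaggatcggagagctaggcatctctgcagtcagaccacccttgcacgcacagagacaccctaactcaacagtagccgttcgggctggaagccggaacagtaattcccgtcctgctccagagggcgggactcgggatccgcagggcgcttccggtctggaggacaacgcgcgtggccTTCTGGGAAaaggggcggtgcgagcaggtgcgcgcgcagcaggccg

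The Psmb6 window holds TGACNNNGC just before the start, the Psmb9 window holds the NF-Y box on the minus strand of the window, and the Psmb8 and Psmd2 windows each hold TTCNNNGAA. Over the members, 38 of 46 genes had a promoter in the RefSeq table, with 41 promoters in all. TGACNNNGC occurred in 9.76% of them (Psmb6, Psmd12, Psmd9 and Psme4) and in 12.4% of the 32851 promoters of the table, CCAAT in 34.1% and 37.4%, and TTCNNNGAA in 7.32% and 8.3%. The paired GAAA boxes occurred in 9.76% (Psmb3, Psmd4, Psmd9 and Psmg4) and in 3.44% of all promoters, and in none of the 3 inducible catalytic genes in this window. A match describes the letters of the window and no binding was measured.

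HECs were compared with ECs to set the ckit- populations sorted with and without Runx1(GFP) side by side. The HEC library held less endothelial RNA (294 against 2280 TPM over 10 genes) and more platelet (53700 against 421 TPM) and pan-hematopoietic RNA (2790 against 61.9 TPM), whose part in the differences was not tested. A gene was compared where the higher of the 2 libraries reached 10 TPM, which left 44 of the 46 genes. HECs were at least 2-fold higher on the log2(TPM + 1) scale for 15 of 44 (34.1%), against 22.7% of the 7793 genes compared, and at least 2-fold lower for 0, against 18.6%. The median difference of the members was 0.81, and that of all genes 0.12. It was 0.54 over the core, with 0 of 13 genes 2-fold higher, and 0.88 over the regulatory particle, with 7 of 16. The largest differences were those of Psmb10 (2.54), the only member at least 4-fold higher (8.87% of all genes were, and 9.24% were 4-fold lower, with 0 members), Psmd4 (1.9), Psmf1 (1.64), Psma8 (1.61), Psmg3 (1.54) and Psmc2 (1.51). Below 0 were only Psme4 (-0.59) and Psma6 (-0.04). With median ratios the count higher fell to 9 of 44, close to the share over all genes (17.9%), and the medians of members and all genes to 0.61 and -0.14.

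Between Runx1+ and Runx1- IAHCs the particles parted. Runx1+ IAHCs were at least 2-fold lower for 11 of 46 members (23.9%), against 37.9% of 8726 genes, and at least 2-fold higher for 5 (10.9%), against 15.8%. The median of members (-0.44) lay close to that of all genes (-0.53), so that the 46 genes as a whole did not stand apart. The regulatory particle had a median of -0.98 with 8 of 16 genes at least 2-fold lower, and the core a median of -0.04 with 1 of 13, which was Psmb6. By the 4-fold rule 2 members were lower (17.5% of all genes) and 3 higher (5.6%). Furthest below on the log2(TPM + 1) scale were Psmd2 (4.91-fold, 4.74 to 5.09), Psmd5 (4.42-fold, 4.21 to 4.64), Psmc1 (2.8-fold, 2.69 to 2.91), Psmd1 (2.81-fold, 2.68 to 2.93) and Psmd4 (2.75-fold, 2.64 to 2.87), with Psmf1 at 2.8-fold (2.6 to 3.02). The 5 higher genes were Psmb8, Psmb9 and Psmb10, described above, Psme4 (2.88-fold, 2.67 to 3.11) and Psme3 (2.42-fold, 2.26 to 2.58).

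**Figure D4:**
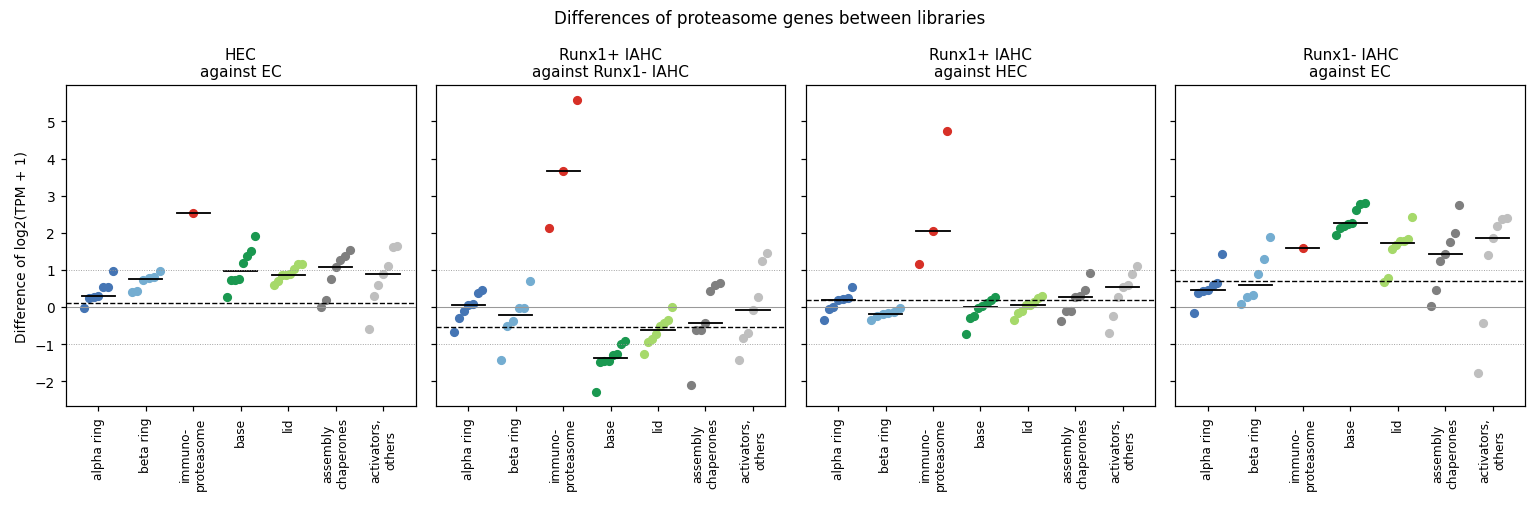
Difference of log2(TPM + 1) of each member in the 4 comparisons, grouped by role. Each point is 1 gene, short lines are group medians, the dashed line is the median of all genes and dotted lines mark 2-fold. In Runx1- IAHCs against ECs the base points lie between 1.93 and 2.81 with the alpha ring between -0.17 and 1.44, and the inducible catalytic genes stand above all others in both comparisons of Runx1+ IAHCs.

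Between Runx1+ IAHCs and HECs, both Runx1-expressing, the members differed least of the 4 comparisons. Of 46 genes, 42 (91.3%) lay within 2-fold, against 72.8% of the 7279 genes compared. Runx1+ IAHCs were at least 2-fold higher for 4, against 13.3% of all genes, and lower for 0, against 13.9%. The 4 were Psmb8 (4.73), Psmb9 (2.06), Psmb10 (1.17) and Psme2b (1.1), the first 2 at least 4-fold (2.79% of all genes, and 6.22% were 4-fold lower, with 0 members), of which Psmb10 (0.97) and Psme2b (0.9) passed no longer with median ratios. Medians were -0.05 over the core and 0.04 over the regulatory particle, and no gene of either was 2-fold apart. Psmd4 (-0.73) and Psmf1 (-0.7) were furthest below.

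Runx1- IAHCs and ECs, both sorted as Runx1-, differed most of the 4 comparisons. Runx1- IAHCs were at least 2-fold higher for 28 of 44 members (63.6%), against 42.5% of 8936 genes, and lower for 1, Psme4, against 16.6%. They were at least 4-fold higher for 12 of 44, against 20.9% of all genes, and 4-fold lower for 0, against 6.39%. The 12 were the 5 ATPases, Psmd2, Psmd4, Psmd13, the base chaperone Psmd5, Psmf1, Psma8 and Psmc3ip. The median was 2.02 over the regulatory particle with 14 of 16 genes at least 2-fold higher, and 0.46 over the core with 3 of 13, below the median of all genes (0.71). Median ratios moved the median of all genes from 0.71 to 0.08, and the medians of the regulatory particle and the core to 1.52 (14 of 16) and -0.05 (1 of 13), so that the core turned sign and the regulatory particle did not. Psmd2 was 7.09-fold higher (6.79 to 7.41), Psmd5 7.14-fold (6.69 to 7.63) and Psmc5 6.93-fold (6.55 to 7.33), while Psme4 was 3.61-fold lower (3.35 to 3.9) and Psma6 1.13-fold lower (1.09 to 1.16).

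Base composition moved with these differences. In Runx1- IAHCs against ECs, the median difference of protein-coding genes rose from 0.13 where the longest transcript had under 42% GC to 1.21 at 54% or more. The core and the regulatory particle had similar GC, with medians of 49.2% and 50.3%. Taken relative to genes of the same GC bin, the regulatory median was 1.24, with 15 of 16 genes above their bin, and the core median 0.07, with 8 of 13 above. In Runx1+ against Runx1- IAHCs these medians were -0.39 (5 of 16 above) and 0.5 (11 of 13), and in HECs against ECs 0.7 (16 of 16) and 0.48 (12 of 13). The part of base composition in the differences of single genes was not tested beyond this. The germ cell sum was also 7030 TPM in Runx1- IAHCs and 683 in ECs, against at most 17.6 in the others. Its part in the differences was not tested.

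Genes around the proteasome were taken from 5 lists. Of 9 subunits and partners without a Psm symbol, the ubiquitin receptor Adrm1 followed the base, at 5.99 TPM in ECs and 24.4 in HECs, 14.4 in the Runx1+ IAHCs and 66.9 in the Runx1- IAHCs, whereas the lid subunit Sem1 did not, at 298, 166, 227 and 136 TPM. Pomp, the chaperone that matures the core, was at 116, 135, 198 and 168 TPM. In Runx1- IAHCs against ECs, 2 of the 7 that could be compared lay 2-fold or more above and 1 below, against 42.5% and 16.6% of all genes. Of 16 genes of ubiquitin and substrate delivery, 8 were higher in that comparison, close to the share over all genes, and 5 lower. The polyubiquitin gene Ubb was at 1183, 2669, 2134 and 8465 TPM, highest in Runx1- IAHCs, and the ribosomal fusion gene Rps27a was at 1202, 623, 1229 and 344 TPM, lowest there.

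Few genes that regulate the proteasome or use its products reached the level for a comparison. Nfe2l1, the factor that restores proteasome genes after inhibition, was at 16.3 TPM in ECs and 7.62 in HECs, 5.81 in the Runx1+ IAHCs and 23.8 in the Runx1- IAHCs. Of 7 such regulators, 4 or fewer reached 10 TPM in a comparison, too few to set against the shares over all genes. Against ECs, Runx1- IAHCs had Nfyb and Nfyc past 2-fold upward and Nfe2l2 downward (42.5% and 16.6% of all genes). HECs against ECs had Nfe2l2 upward and Nfe2l1 downward (22.7% and 18.6%). Runx1+ against Runx1- IAHCs gave the same genes in the same directions (15.8% and 37.9%). Between Runx1+ IAHCs and HECs no regulator passed 2-fold (13.3% and 13.9%). In class I antigen processing, where peptides made by the immunoproteasome are loaded, Runx1+ IAHCs were at least 2-fold above Runx1- IAHCs for B2m, H2-K1 and H2-D1 and lower for Pdia3, of 7 compared (15.8% and 37.9% of all genes). The peptide transporter gene Tap1, the neighbour of Psmb9, was at 0.412, 0.0175, 2.83 and 0.177 TPM, highest in Runx1+ IAHCs as Psmb9 was. Of 11 interferon response genes only 2 could be compared between IAHC populations, and Irf1, the factor that activates inducible proteasome genes under interferon, was at 9.41 and 49.8 TPM in Runx1+ and Runx1- IAHCs, the opposite order to Psmb8 and Psmb9. Below the level for a comparison, other genes of the list had more reads in Runx1+ than in Runx1- IAHCs, among them Usp18 (121 and 1), Irf7 (58 and 0), Ifit1 (28 and 0), Gbp2 (10 and 0) and Ifit3 (9 and 0). Stat2 went the other way (140 and 268 reads), and Isg15 had 3 and 2. Ifi35, which could be compared, was level at 27.5 and 28.4 TPM, so the list did not share a direction. Irf8 was at 0.185, 0.516, 5.87 and 1.3 TPM.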

How the data were processed

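RNA was measured in 4 sorted populations, 1 library each. A template-switching kit, which marks no strand, turned part of the sorted lysate into full-length cDNA, which was tagmented and read as single short reads (the study's methods). The authors aligned reads to GRCm38 (HISAT2 2.0.4, per the submitters' processing notes), counted genes in union mode and deposited linear TPM for 51205 genes. Reads on more than 1 gene are dropped or placed uncertainly. No value was 0, and values times exonic length were whole multiples of 1 step less 1 added read in 49371 genes (96.4%, within 0.01 reads). For 40 of the 46 members the annotated length gave whole reads, and for 6 (Psmb1, Psma7, Psmg2, Psma8, Psmb9, Psmb8) a searched length did, so their reads are less certain.

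Differences of log2(TPM + 1), a scale on which low genes differ by less than their true ratio, were taken where the higher library reached 10 TPM. With 1 library each, genes at least 2-fold apart were counted as a rule of size, beside all genes. Folds and intervals came from recovered reads, with a floor of 3 reads. All 46 genes could be named, and those catalytic, inducible, highest, lowest, 4-fold apart or furthest apart are given in full. Members and lists were chosen with earlier results of these data known. The catalytic share rests on 5 genes, fewer than were planned. Further sheets of the deposited workbook were not used. Calculations used Python 3.11.15, pandas 2.3.3 and scipy 1.17.1. The size rule and the read recovery were also run on simulated counts with Poisson noise only. Those counts were built with the added read, so the recovery could not fail there. Alternatives were pseudocounts, minimum levels, scalings and, chosen after seeing the data, GC centring, leaving out genes with shared windows, and the order of libraries under each scaling.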

Additional observations from a re-analysis of the deposited data

Results flagged for a closer look

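For 4 of the 44 members compared in both gates, the difference between cells with and without Runx1 ran in opposite directions in the ckit- and the ckit+ gate, by at least 2-fold in each. The share of all genes past this rule was not counted, so whether 4 is many cannot be said. The difference between the gates was not tested, since each value rests on 1 library per population. Psmd4 was higher in HECs than in ECs by 1.9 and lower in Runx1+ than in Runx1- IAHCs (-1.45), 3.35 apart on the log2(TPM + 1) scale. Psmf1 stood 3.06 apart (1.64 and -1.42), Psmc5 2.67 (1.38 and -1.29) and Psmc3 2.2 (1.19 and -1.01). The value of Psmc3 in IAHCs lay just past the 2-fold limit and came to -0.9 with median ratios and -0.62 with GC centring, and its value in HECs against ECs to 0.99 and 0.85, so that neither passed then. Over all 44 members compared in both gates, 31 (70.5%) were higher in HECs and lower in Runx1+ IAHCs, against 34% of 6758 genes, 11 were higher in both and 2 were lower in HECs and higher in Runx1+ IAHCs. All 4 libraries enter here, with ECs lowest and Runx1- IAHCs highest for these 4 genes.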

How the results depend on the processing

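No direction of the 64 member differences of at least 2-fold reversed under the alternatives, but most of these could not have reversed one. A pseudocount or a minimum level cannot change a sign. The median ratio factors, from -0.27 to 0.24 on the log2 scale, lie too close together to turn a 2-fold difference. The alternatives gave 403 values still past 2-fold and 28 below it, 14 of these with median ratios. Among the 403 are 64 and 47 values that a changed minimum level leaves as they were. With median ratios HECs were higher than ECs for 9 of 44 members (17.9% of all genes) and Runx1+ IAHCs than HECs for 2 of 46 (8.31%), and the median differences were 0.61 (HEC against EC), -0.33 (Runx1+ against Runx1- IAHC), -0.14 (Runx1+ IAHC against HEC, which turned sign) and 1.07 (Runx1- IAHC against EC). Scaled without mitochondrial, ribosomal protein and hemoglobin genes, they were 0.64, -0.34, 0.11 and 1.37. Centred by GC content, Runx1- IAHC against EC gave 1.3. With a minimum of 50 TPM, Runx1+ IAHCs were higher than Runx1- IAHCs for 2 of 39 members and than HECs for 2 of 35. Runx1- IAHCs were lower than ECs for 0 of 38. The share of all genes was not counted at this minimum. Psmb8, Psmb9 and Psme4 stayed under 50 TPM in every library, so this filter itself removed them. With a rule of 4-fold the counts were 1 higher in HECs than ECs, 3 higher and 2 lower in Runx1+ than Runx1- IAHCs, 2 higher than in HECs, and 12 higher and 0 lower in Runx1- IAHCs than ECs. The summed core with median ratios was 5152, 6456, 5406 and 5951 (EC, HEC, Runx1+ and Runx1- IAHC), and the regulatory particle 1443, 2564, 2163 and 4221. Without the gene classes named above the sums were 6018, 7696, 7697 and 8517 for the core and 1686, 3056, 3080 and 6041 for the regulatory particle. By reads the immunoproteasome share was 2.12%, 7.99%, 26.4% and 2.19%. The causes of these shifts were not tested.

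No paired analysis was possible because each population has 1 library, and for the same reason no library could be left out of a comparison. Read depth limits Psmb8 and Psmb9, at a floor of up to 0.118 and 0.0973 TPM for a count of 0, and the number of sorted cells, fewest for Runx1- IAHCs, limits all values. Psma5 (48.6%), Psmb3 (17.5%), Psma3 (15.3%), Psmc1 (13.5%) and Psma4 (11.3%) also share 51-base windows with other genes, and the medians without members over 10% were 0.87, -0.44, 0.09 and 1.62.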
